A study of Oryza sativa with 8 samples.

Results

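Flag leaves of the rice line labelled GSK2-RNAi_oswrky53 were compared with flag leaves of the wild type, gene by gene. The deposited table held 38335 transcripts, which were summed to 32166 loci, and the comparison covered the 25325 loci with a normalized count of at least 10 in at least 2 of the 8 libraries of the series. GSK2-RNAi_oswrky53 had 3 libraries, replicates 1, 2 and 3, from plants that carry an RNA interference construct against GSK2 together with a mutation of WRKY53. GSK2-RNAi, the line with the construct alone, had 3 libraries, which entered the estimate of the spread and are shown beside the main values. The wild type had 2 libraries, replicates 1 and 3, and carried neither change. All genotypes were in the cultivar ZH11 and were raised in a growth chamber. Every sample title carries the tag CK, which all groups share, and no difference in treatment is read from it. The harvest was at heading by the sample labels and at booting by the series text. Neither source says which promoter drives the construct, how WRKY53 was mutated, how many independent lines were used or whether replicate libraries stem from different plants. The p-values therefore measure the spread between these libraries, which may be technical, moderated by the spread of loci at similar levels.

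GSK2 is a kinase of the GSK3 family that restrains brassinosteroid signalling. When the hormone binds the receptor kinase BRI1, such kinases are switched off, and the transcription factors BZR1 and BZR2 (BES1) can act on their targets, among them the genes of hormone synthesis. In rice, brassinosteroids increase the bending of the leaf at the lamina joint and the size of the grain, and WRKY53 is known both as a defence regulator acting with MAP kinases and as a promoter of brassinosteroid responses. The comparison asks how the flag leaf transcriptome of plants with both changes differed from that of the wild type.

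Summed normalized counts in the 5 libraries compared lay between 25.98 and 28.03 in units of 1e6, and the 100 most abundant loci held between 28.5% and 31.7% of them. The libraries labelled GSK2-RNAi extended both ranges downwards, to 20.87 and 21.3%. The tissue label was checked against leaf genes. RCA, the activase of the carbon-fixing enzyme Rubisco, had 485529, 485407 and 453372 normalized counts in GSK2-RNAi_oswrky53 libraries, against 651547 and 546480 in wild type libraries, among the highest values in the table.

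No GSK2-RNAi_oswrky53 library had less transcript of GSK2, the target of the interference, than the wild type. GSK2 (Os05g0207500, chromosome 5) had 182, 219 and 155 normalized counts in GSK2-RNAi_oswrky53 leaves, 795, 741 and 819.6 in GSK2-RNAi leaves, and 105 and 98.5 in wild type leaves. All 3 GSK2-RNAi_oswrky53 values lay above both wild type values and below every GSK2-RNAi value. The mean was 185 ± 32.2 (SD, n = 3) in GSK2-RNAi_oswrky53 leaves and 102 ± 4.25 (SD, n = 2) in wild type leaves. The log2 fold change was 0.85 ± 0.17 (SE), with a 95% interval from 0.46 to 1.24, and did not pass the threshold over all loci (limma adjusted p = 0.102). Reads of the construct and of the endogenous gene cannot be told apart in this table. The groups are therefore named by their labels, and a difference between them is not read as the result of less GSK2 transcript.

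WRKY53 (Os05g0343400, chromosome 5) had 11611, 7686 and 5971 normalized counts in GSK2-RNAi_oswrky53 leaves, 7396, 7843 and 8559.6 in GSK2-RNAi leaves, and 3992 and 3209 in wild type leaves. The GSK2-RNAi_oswrky53 libraries spread more widely than those of the other groups and all lay above the wild type. The log2 fold change was 1.18 ± 0.26 (SE, 95% interval from 0.58 to 1.77), which was not called (limma adjusted p = 0.133). A transcript that is made but altered would also be counted, so these levels do not test the mutation.

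**Figure D1:**
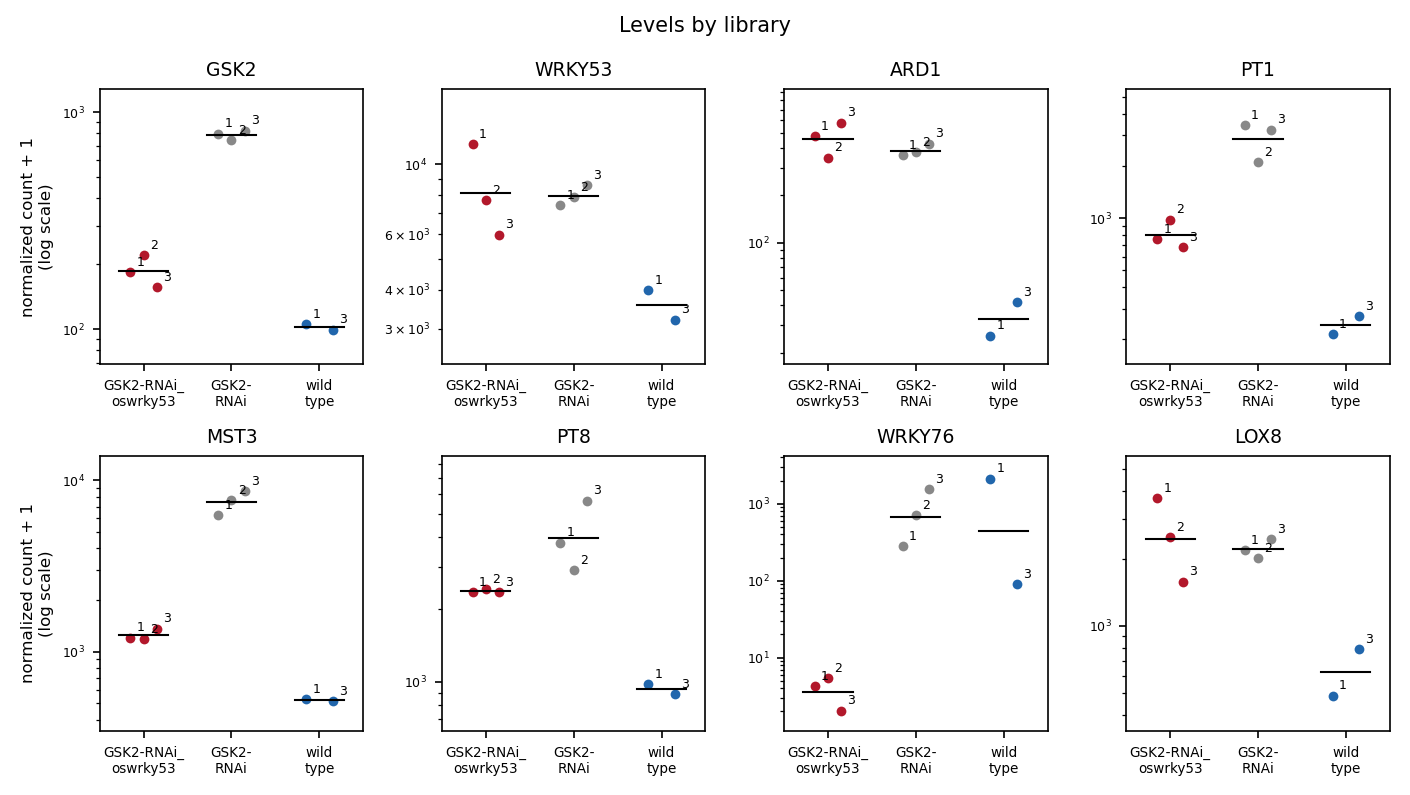
Normalized counts plus 1 (log axis) of 8 genes in each library, with the groups GSK2-RNAi_oswrky53, GSK2-RNAi and wild type from left to right in each panel; points are numbered by replicate and the line is the group mean on the log scale. GSK2 in GSK2-RNAi_oswrky53 leaves (155 to 219) sits between GSK2-RNAi and wild type, ARD1 (346 to 576) is near its GSK2-RNAi level, and WRKY76 (1.04 to 4.41) is lower than in any other library.

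Few loci separated GSK2-RNAi_oswrky53 leaves from wild type leaves at the threshold used, and nearly all of those were higher in GSK2-RNAi_oswrky53. Of 25325 loci, 78 rose (0.308%) and 7 fell (0.0276%), so that 85 changed in all (0.336%), by limma with a Benjamini-Hochberg adjusted p under 0.05. In each of the 85 loci the 3 GSK2-RNAi_oswrky53 values did not overlap the 2 wild type values. The 78 include loci that passed the filter only through GSK2-RNAi_oswrky53, the group in which they are high. Os04g0483450 and Os12g0481400, for example, were listed at 0 in every other library. Groups listed at 0 throughout also add no spread to the fit of such loci. At an unadjusted limma p under 0.05 there were 3283 loci, 2048 higher and 1235 lower. Over all loci, groups were fully separate with GSK2-RNAi_oswrky53 higher in 15.7% and lower in 11.6%. Against the same wild type libraries, 24.8% of loci changed in GSK2-RNAi leaves, and 16.5% changed between GSK2-RNAi_oswrky53 and GSK2-RNAi leaves. Of the 78 loci that rose, 52 were also called higher in GSK2-RNAi leaves, where 13.3% of all loci were. Of the 7 that fell, 5 were also called lower there, where 11.6% of all loci were. The shared wild type libraries enter both comparisons.

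The precision of the comparison bounds what these counts can say. The median log2 fold change over all loci was 0.02, its median size regardless of sign was 0.26, and the median distance from the estimate to either bound of its 95% interval was 0.59. For 14231 loci (56.2%) the whole interval lay within 1 on the log2 scale, meaning a difference of less than a doubling or halving. For the remaining loci the interval reached past a doubling or a halving. Refits also called loci outside the 85, and without GSK2-RNAi_oswrky53 replicate 2, for example, 36 of the 85 were lost. The number of changed loci was 47 when the 5 libraries compared were fitted alone, with 43 of these among the 85. It was 53 without GSK2-RNAi_oswrky53 replicate 2, 54 without wild type replicate 1 and 53 without wild type replicate 3, and 49 rather than 78 loci rose without GSK2-RNAi_oswrky53 replicate 1.

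**Figure D2:**
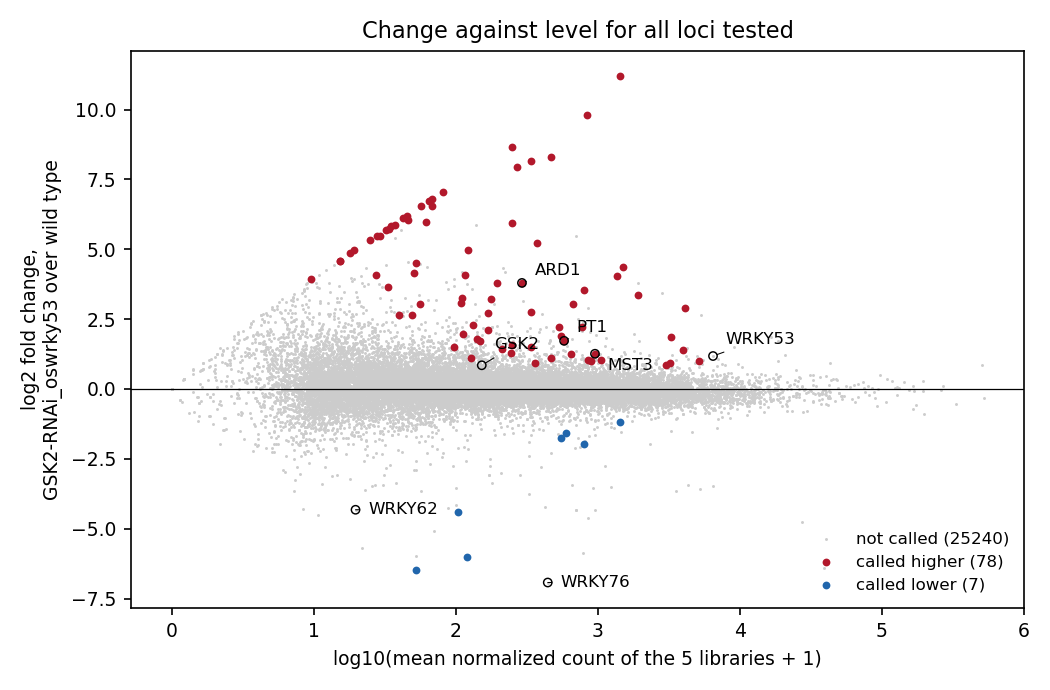
Log2 fold change of GSK2-RNAi_oswrky53 over wild type (vertical) against the log10 of the mean normalized count plus 1 of the 5 libraries (horizontal) for 25325 loci, each a point. The 78 loci called higher and 7 called lower are coloured, and the open circles around GSK2, WRKY53, WRKY62 and WRKY76 mark genes that were not called.

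The called loci were mostly large changes, and many were transcripts listed at 0 in the wild type. Of the 85, 3 had a log2 fold change under 1 in size, 24 between 1 and 2, 20 between 2 and 4 and 38 above 4. In 22 of the 78 that rose, both wild type libraries were listed at 0, so for these the fitted change depends on the pseudocount and no fold is given. The files do not pair these identifiers with names, and 3 of the 85 could be given a checked name: ARD1, PT1 and MST3. The pairings of ARD1 and MST3 were written down after their identifiers had been seen among the called loci, so they are a description and not a test of any list.

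ARD1 (Os10g0419400, chromosome 10) encodes acireductone dioxygenase, an enzyme of the methionine salvage cycle that recycles the sulphur compound left over from making ethylene and polyamines. It had 473, 346 and 576 normalized counts in GSK2-RNAi_oswrky53 leaves, 357, 373 and 424 in GSK2-RNAi leaves, and 24.7 and 41.0 in wild type leaves. Both lines were an order of magnitude above the wild type and overlapped each other. In GSK2-RNAi_oswrky53 the mean was 465 ± 115 (SD, n = 3), against 32.9 ± 11.5 (SD, n = 2) in the wild type, a 14.2-fold higher mean. The log2 fold change was 3.80 ± 0.27 (SE, limma adjusted p = 0.000693).

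PT1 (Os03g0150600, chromosome 3), a phosphate transporter of the plasma membrane, had 759, 979 and 676 normalized counts in GSK2-RNAi_oswrky53 leaves, 3449, 2102 and 3238 in GSK2-RNAi leaves, and 213 and 270.1 in wild type leaves. Its GSK2-RNAi_oswrky53 values stood between the other groups without overlap. It rose 3.33-fold against the wild type (log2 fold change 1.72 ± 0.25, SE, limma adjusted p = 0.032). This call was lost without any 1 of the 5 libraries compared, with adjusted p between 0.0597 and 0.159, without GSK2-RNAi replicate 1 (0.0547) or 3 (0.0638), without the intensity trend (0.0873) and with the 5 libraries fitted alone (0.0896).

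MST3 (Os07g0106200, chromosome 7), a transporter of glucose and other monosaccharides, had the same order of groups. It had 1207, 1183 and 1358 normalized counts in GSK2-RNAi_oswrky53 leaves, 6269.8, 7663 and 8613 in GSK2-RNAi leaves, and 527 and 513 in wild type leaves. The rise against the wild type was 2.4-fold (95% interval of the log2 fold change from 0.91 to 1.61, SE 0.15, limma adjusted p = 0.0132). The call was lost without GSK2-RNAi_oswrky53 replicate 3 (adjusted p = 0.0559) and without wild type replicate 1 (0.0758) or 3 (0.0836). It was also lost without the intensity trend (0.0512) and when the highest transcript stood for the locus (log2 fold change 1.93, adjusted p = 0.0502).

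The largest rises were in loci without a checked name. Os03g0115800 (chromosome 3) had 2875, 1708 and 2636 normalized counts in GSK2-RNAi_oswrky53 leaves, 2199.6, 2369 and 2578 in GSK2-RNAi leaves, and was listed at 0 in both wild type libraries (limma adjusted p = 2.54e-07). Os08g0410900 (chromosome 8) had 1260.1, 1636 and 1323 in GSK2-RNAi_oswrky53 leaves, 761, 586 and 682 in GSK2-RNAi leaves, and 1.44 and 0 in wild type leaves (limma adjusted p = 9.94e-06). Both loci were thus present in all 6 libraries that carry the construct label and at or near 0 in the wild type.

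In all, 9 loci had at least 50 normalized counts in every GSK2-RNAi_oswrky53 library and at most 1 in both wild type libraries, and 0 loci showed the opposite. Os03g0629800 (chromosome 3) was one of them, at 321, 521 and 404 in GSK2-RNAi_oswrky53 leaves and 299, 331 and 374 in GSK2-RNAi leaves, and listed at 0 in the wild type. Of the 9, 6 were also at 50 or more in all GSK2-RNAi libraries, and 2 were at 1 or less in all of these. Those 2 were thus seen in GSK2-RNAi_oswrky53 alone. Os04g0483450 (chromosome 4) had 156, 143 and 101.2 normalized counts there and Os12g0481400 (chromosome 12) had 124, 121 and 89.7, and both were listed at 0 in all GSK2-RNAi and wild type libraries. Of the 85 called loci, 13 had another called locus within 5 tested loci along the identifier order, and 2 loci had identical values in all 8 libraries and cannot be told apart.

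Among called loci the largest fall was in a locus whose wild type values were far apart. Os06g0197575 (chromosome 6) was listed at 0 in all 3 GSK2-RNAi_oswrky53 libraries, against 178, 66.5 and 161 normalized counts in GSK2-RNAi leaves and 224 and 35.1 in wild type leaves (limma adjusted p = 0.0113). The call was lost with a pseudocount of 5 (adjusted p = 0.0555) and with the 5 libraries fitted alone (0.11). Os08g0332100 (chromosome 8) had 4.39, 2.18 and 4.18 in GSK2-RNAi_oswrky53 leaves, 58.4, 51.2 and 73.0 in GSK2-RNAi leaves, and 355 and 230.5 in wild type leaves. It fell by 6.01 on the log2 scale (limma adjusted p = 0.000269), and its 3 groups did not overlap.

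A further 2 loci, chosen after their values were seen, show changes at well-measured levels. Os01g0286100 (chromosome 1) had 2654, 3113 and 3217 normalized counts in GSK2-RNAi_oswrky53 leaves, 423, 654 and 509 in GSK2-RNAi leaves, and 304 and 282 in wild type leaves, a 10.2-fold higher mean than in the wild type (limma adjusted p = 0.000157). Its highest level was thus in GSK2-RNAi_oswrky53, while GSK2-RNAi had a smaller rise over the wild type that was also called (log2 fold change 0.83, limma adjusted p = 0.0146). Os12g0406000 (chromosome 12) had 352, 427 and 333 in GSK2-RNAi_oswrky53 leaves, 324, 265 and 269 in GSK2-RNAi leaves, and 1460.0 and 1458 in wild type leaves. It fell by 1.98 on the log2 scale (limma adjusted p = 0.00109), to values just above those of GSK2-RNAi.

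**Figure D3:**
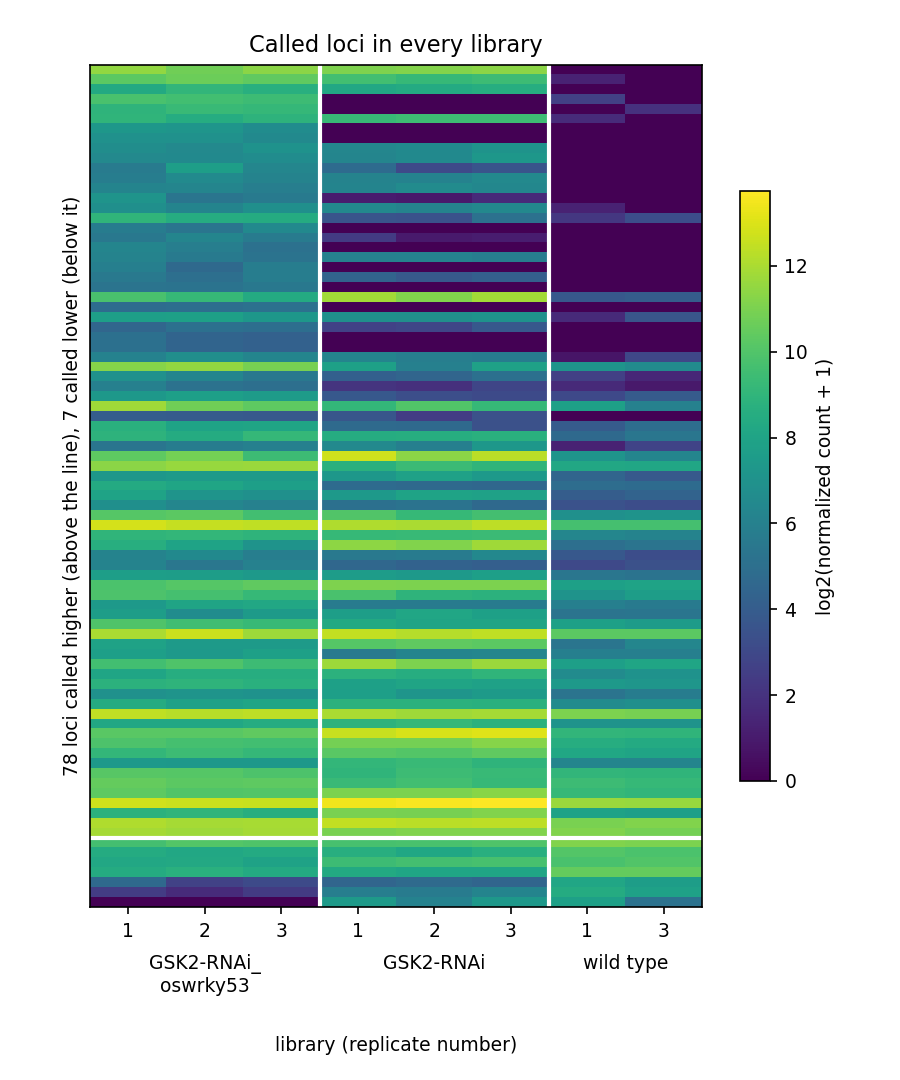
Log2 of the normalized count plus 1 (colour) of the 85 called loci (rows, by log2 fold change) in each library (columns, numbered by replicate), with 78 loci that rose above the line and 7 that fell below it. Many of the upper rows are dark in both wild type libraries, where 22 loci are listed at 0, and a part of these is dark in GSK2-RNAi as well.

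Gene lists with checked names were then read in the same fit, with the background of 0.336% of loci called. Among 297 named loci tested, no gene other than ARD1, PT1 and MST3 was called, so for every other gene below the values and intervals are given and no change is claimed. Members beyond the one with the highest count in each list were picked after their values were seen. Values of GSK2-RNAi are set beside many of them but not all, and that comparison uses the same wild type libraries. Where they are not given, nothing is said of a difference from GSK2-RNAi.

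Brassinosteroid genes of the GSK2-RNAi_oswrky53 line were not called in any direction, 0 of 11 in signalling and 0 of 9 in synthesis and breakdown. The median log2 fold changes were 0.09 and -0.13, beside 0.02 over all loci. In GSK2-RNAi against the wild type, 3 signalling genes rose and 2 fell, where 13.3% of all loci rose and 11.6% fell. The signalling rises included GSK2 itself, whose reads cannot be told from those of the construct. Of the synthesis and breakdown genes, 2 rose and 4 fell. BRI1, the receptor gene, had 187, 260.1 and 322 normalized counts in GSK2-RNAi_oswrky53 leaves, 104, 90.5 and 92.0 in GSK2-RNAi leaves, and 215 and 258 in wild type leaves. GSK2-RNAi_oswrky53 and wild type overlapped, with a log2 difference of 0.09 (95% interval from -0.46 to 0.63), and both lay above GSK2-RNAi. BSL1, the phosphatase gene with the highest count among the signalling genes, differed from the wild type by 0.05 (95% interval from -0.27 to 0.36).

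The kinase gene GSK4, related to GSK2, had 568, 519 and 638 normalized counts in GSK2-RNAi_oswrky53 leaves, 354, 379 and 383 in GSK2-RNAi leaves, and 826 and 952 in wild type leaves. The GSK2-RNAi_oswrky53 values lay between the other groups without overlap, at a log2 difference of -0.63 ± 0.14 from the wild type (SE, limma adjusted p = 0.128). BZR1 had 509.5, 394 and 417 in GSK2-RNAi_oswrky53 leaves and 265 and 295 in wild type leaves, again without overlap, at a log2 difference of 0.65 (limma adjusted p = 0.161). BZR2 lay 0.48 above the wild type (95% interval from 0.21 to 0.76, limma adjusted p = 0.169).

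Of the synthesis genes, DWF4, which encodes a C-22 hydroxylase of the pathway, had 389, 279 and 543 normalized counts in GSK2-RNAi_oswrky53 leaves, 73.5, 43.9 and 49.6 in GSK2-RNAi leaves, and 1053 and 311 in wild type leaves. The GSK2-RNAi_oswrky53 values overlapped the widely spaced wild type values and lay above all GSK2-RNAi values, and the log2 difference from the wild type was -0.55 (95% interval from -1.69 to 0.58), or 0.32 without wild type replicate 1. D2, another cytochrome P450 of the pathway, had 222, 560.3 and 462 in GSK2-RNAi_oswrky53 leaves and 390.1 and 460.3 in wild type leaves. CYP734A4, whose enzyme class inactivates the hormone, had 51.5, 30.5 and 113 in GSK2-RNAi_oswrky53 leaves, 209.8, 665 and 347 in GSK2-RNAi leaves, and 20.2 and 21.8 in wild type leaves. It stood apart from both other groups, at a log2 difference of 1.39 from the wild type (limma adjusted p = 0.373).

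Of 5 measured genes of leaf angle and grain size 0 were called, with a median log2 fold change of 0.54. LG1, which is needed to form the lamina joint, had 66.9, 73.1 and 55.5 normalized counts in GSK2-RNAi_oswrky53 leaves, 20.5, 25.1 and 28.5 in GSK2-RNAi leaves, and 37.5 and 52.1 in wild type leaves. GSK2-RNAi_oswrky53 was the highest group, without overlap, but its difference from the wild type of 0.54 on the log2 scale was not called (limma adjusted p = 0.483). IBH1, an inhibitor of brassinosteroid-driven growth and the member with the highest count, was at -0.21 (95% interval from -0.57 to 0.16).

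Of 6 WRKY genes 0 passed the threshold, with 4 wholly above and 2 wholly below the wild type values, beside 15.7% and 11.6% of all loci. The 2 below, WRKY76 and WRKY62, were singled out because earlier results of these data already showed them near 0 in GSK2-RNAi_oswrky53. WRKY53, the gene of the label, is among the 4 above. The counts are therefore a description and not a test. WRKY76, a repressor of defence responses, had 3.30, 4.41 and 1.04 normalized counts in GSK2-RNAi_oswrky53 leaves, 281, 705 and 1551 in GSK2-RNAi leaves, and 2124 and 90.2 in wild type leaves. It was near 0 in all GSK2-RNAi_oswrky53 libraries and in none of the others. The wild type libraries differed widely from each other, and the log2 fold change of -6.93 ± 1.21 (SE) was not called (limma adjusted p = 0.0718). Without wild type replicate 3 it was called, at -9.20 (limma adjusted p = 0.00999).

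WRKY62, the neighbouring gene of WRKY76 in the same class, had 0, 3.28 and 0 normalized counts in GSK2-RNAi_oswrky53 leaves, 68.1, 157 and 293 in GSK2-RNAi leaves, and 78.1 and 12.3 in wild type leaves. It had the same order of libraries in the wild type, replicate 1 above replicate 3, and a log2 fold change of -4.32 (limma adjusted p = 0.142). The other 4 WRKY genes, WRKY53 among them, lay above both wild type values in all GSK2-RNAi_oswrky53 libraries. WRKY51 had 1957, 2233 and 1952 in GSK2-RNAi_oswrky53 leaves, 2106, 2227 and 2659 in GSK2-RNAi leaves, and 1189 and 1228 in wild type leaves (log2 difference 0.76, limma adjusted p = 0.0763). WRKY24 had 328, 291 and 142 in GSK2-RNAi_oswrky53 leaves, 254, 215 and 538 in GSK2-RNAi leaves, and 52.6 and 52.1 in wild type leaves (2.16, limma adjusted p = 0.113). These 2 genes overlapped GSK2-RNAi and not the wild type. WRKY71 was at a log2 difference of 1.48 (limma adjusted p = 0.147).

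Of 4 MAP kinase cascade genes 0 were called, with a median log2 fold change of 0.07. MPK3, a defence-related MAP kinase, had 138, 142 and 130.3 normalized counts in GSK2-RNAi_oswrky53 leaves, 205, 157 and 238 in GSK2-RNAi leaves, and 39.7 and 89.2 in wild type leaves, without overlap (log2 difference 1.18, limma adjusted p = 0.21). Its partner MPK6 was at 0.01 (95% interval from -0.31 to 0.33), and WNK1, the highest member by count, at 0.10 (from -0.19 to 0.38).

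Cytokinin genes, which carry the hormone signal that delays leaf ageing, had 0 of 16 calls and a median log2 fold change of 0.20. In GSK2-RNAi leaves against the same wild type libraries, 3 of the 16 rose and 7 fell (median -0.91), against a background of 13.3% of loci higher and 11.6% lower. Between GSK2-RNAi_oswrky53 and GSK2-RNAi leaves, 7 of the 16 rose and 1 fell, against 8.78% and 7.7% of all loci. The same GSK2-RNAi libraries enter both counts, which are therefore not separate results. Genes that fell in GSK2-RNAi and were higher in GSK2-RNAi_oswrky53 than in GSK2-RNAi included RR4, RR6, RR9 and RR10, type-A response regulators, which the hormone induces. RR4 had 2176, 1601 and 2246 normalized counts in GSK2-RNAi_oswrky53 leaves, 516, 493 and 594 in GSK2-RNAi leaves, and 2888 and 2637 in wild type leaves. RR6 had 644, 482 and 662 in GSK2-RNAi_oswrky53 leaves, 139.5, 93.9 and 145 in GSK2-RNAi leaves, and 266 and 390.4 in wild type leaves. RR4 of GSK2-RNAi_oswrky53 lay just below the wild type (log2 difference -0.48, limma adjusted p = 0.299) and RR6 above it (0.87, limma adjusted p = 0.229).

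RR10 had 2515, 2019 and 2441 normalized counts in GSK2-RNAi_oswrky53 leaves, 353, 306 and 376 in GSK2-RNAi leaves, and 1485 and 1891 in wild type leaves. RR9, with 995, 655 and 1143 in GSK2-RNAi_oswrky53 leaves, 172, 148 and 236 in GSK2-RNAi leaves, and 504 and 499 in wild type leaves, is a near-identical copy of RR10, and the division of reads between them is uncertain. LOG, which activates cytokinins and had the highest count of the list, was at 0.02 (95% interval from -0.60 to 0.64).

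None of 33 genes of photosynthesis and chlorophyll synthesis was called, and the median log2 fold change was -0.16. For 18 of them (54.5%) the 95% interval lay within 1 on the log2 scale, near the 56.2% of all loci. In GSK2-RNAi leaves 0 of the 33 rose and 19 fell against the same wild type libraries (median -1.08), where 13.3% of all loci rose and 11.6% fell. Between GSK2-RNAi_oswrky53 and GSK2-RNAi leaves 15 of the 33 rose and 0 fell, where 8.78% of all loci rose and 7.7% fell. Both counts use the same GSK2-RNAi libraries, so low values there enter both and the counts are not separate results. In whole leaves, fewer cells of a type and less RNA per cell cannot be told apart.

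The log2 difference of RCA was -0.33 ± 0.60 (SE), and that of CAB1R, a chlorophyll-binding protein, was 0.10 (95% interval from -0.94 to 1.14). The SE of RCA is wider than its own values would give, because the fit moderates it by an intensity trend. Its means were 474769 ± 18531 (SD, n = 3) in GSK2-RNAi_oswrky53 and 599014 ± 74293 (SD, n = 2) in wild type leaves. That RCA was not called therefore does not show that its libraries were noisy. The 4 members with all GSK2-RNAi_oswrky53 values below the wild type were RCA, DVR, LFNR1 and VIPP1, against 11.6% of all loci in that state. DVR, an enzyme of chlorophyll synthesis, had 1528, 1536 and 1599.9 normalized counts in GSK2-RNAi_oswrky53 leaves, 587, 606 and 769.6 in GSK2-RNAi leaves, and 2417 and 1881 in wild type leaves (log2 difference -0.46, limma adjusted p = 0.288). VIPP1, which maintains the thylakoid membrane, had 3820.0, 4395 and 4053 in GSK2-RNAi_oswrky53 leaves, 3342, 3004 and 3047 in GSK2-RNAi leaves, and 5701 and 5186 in wild type leaves (-0.41, limma adjusted p = 0.237). Both genes had GSK2-RNAi_oswrky53 between the other groups, without overlap.

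Chlorophyll breakdown genes had 0 of 4 calls, with wide intervals. RCCR1, whose enzyme acts on a red chlorophyll breakdown product, had 145, 137 and 149.5 normalized counts in GSK2-RNAi_oswrky53 leaves, 1404, 2849 and 1055 in GSK2-RNAi leaves, and 139.6 and 77.0 in wild type leaves. SGR, the stay-green gene that starts the breakdown, had 229.7, 83.0 and 398 in GSK2-RNAi_oswrky53 leaves, 1283, 3471 and 1334 in GSK2-RNAi leaves, and 328 and 63.6 in wild type leaves. Both genes overlapped the wild type in GSK2-RNAi_oswrky53 and were higher in every GSK2-RNAi library. The log2 differences from the wild type were 0.47 (95% interval from -0.45 to 1.38) and 0.44 (from -1.44 to 2.32), and that of NYC1, a chlorophyll b reductase, was 0.42 (from -0.52 to 1.37), or -0.40 without wild type replicate 3. Of 3 NAC genes linked to senescence 0 were called, and NAC6 was at -0.03 (95% interval from -0.55 to 0.50).

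Nitrogen genes had 0 of 9 calls. GS2, the chloroplast glutamine synthetase, had 36005, 45481 and 42612 normalized counts in GSK2-RNAi_oswrky53 leaves, 22624, 16736 and 24368 in GSK2-RNAi leaves, and 57287 and 53720.4 in wild type leaves, 3 groups without overlap. Its log2 difference from the wild type was -0.43 (limma adjusted p = 0.507). Fd-GOGAT, its partner in ammonium assimilation, was at -0.24 (95% interval from -0.86 to 0.38).

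**Figure D4:**
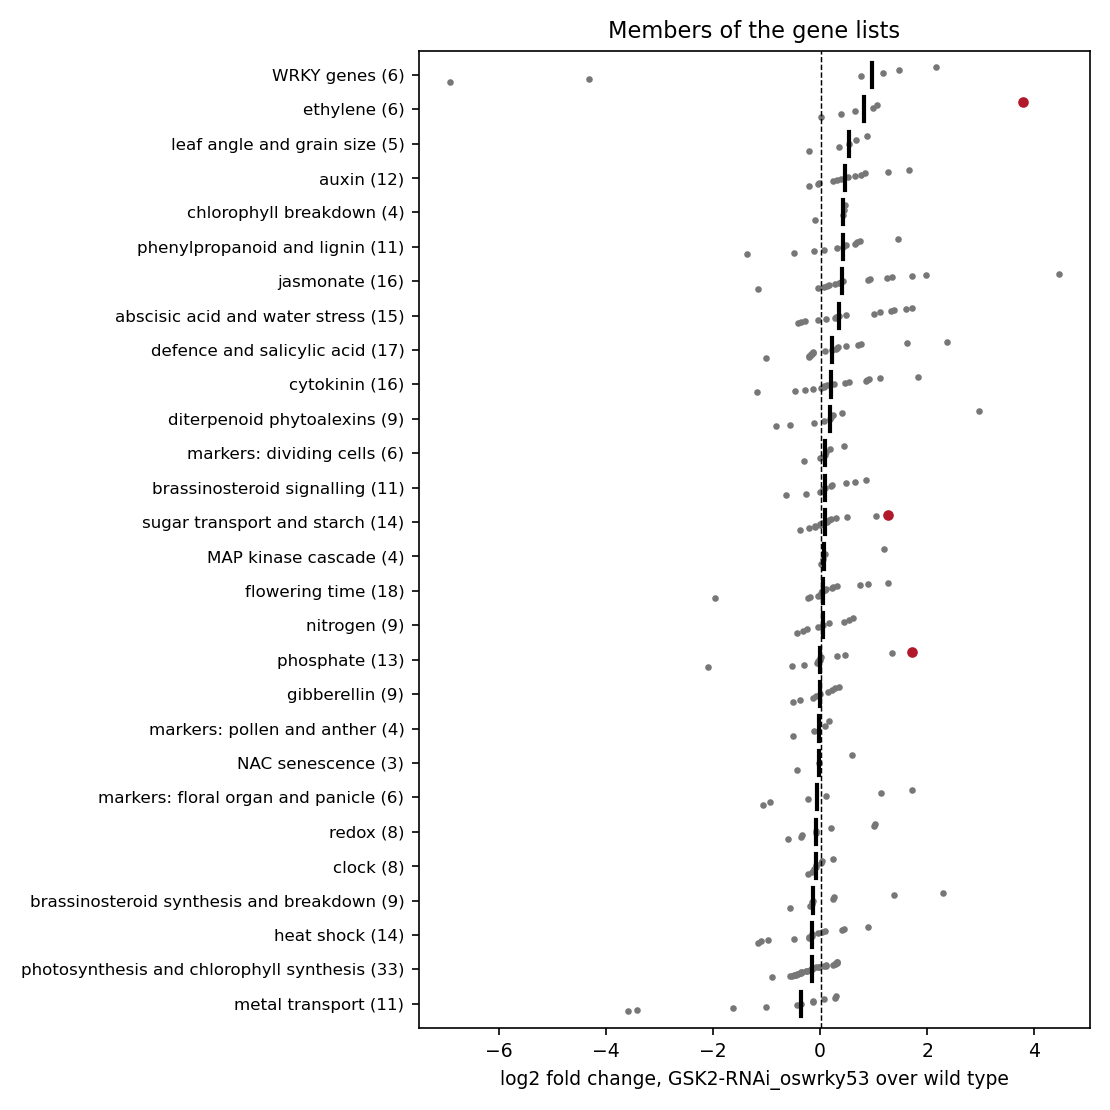
Log2 fold change of GSK2-RNAi_oswrky53 over wild type (horizontal) for each measured member of the gene lists (rows, number of members in brackets); grey points were not called, the 3 red points are ARD1, PT1 and MST3, black bars are list medians, and the dashed line is the median of all loci (0.02). The clock genes lie close to the line, and the WRKY genes spread from -6.93 to 2.16.

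Jasmonate genes had 0 of 16 calls and a median log2 fold change of 0.41, and in 7 of them every GSK2-RNAi_oswrky53 value was above both wild type values, against 15.7% of all loci. LOX8, a lipoxygenase that starts jasmonate synthesis in the chloroplast, had 3714, 2494 and 1574 normalized counts in GSK2-RNAi_oswrky53 leaves, 2173, 2002 and 2434 in GSK2-RNAi leaves, and 487 and 787 in wild type leaves. TIFY11D, a JAZ repressor that jasmonate induces, had 34.2, 31.9 and 38.1 in GSK2-RNAi_oswrky53 leaves, 114, 76.9 and 61.7 in GSK2-RNAi leaves, and 10.2 and 9.53 in wild type leaves. The lines labelled with the construct were above the wild type for both genes, and the log2 differences of GSK2-RNAi_oswrky53 were 1.98 ± 0.34 (SE, limma adjusted p = 0.0631) and 1.72 ± 0.33 (limma adjusted p = 0.0931). AOS2, the next enzyme after the lipoxygenase, varied widely, with 237, 4.36 and 31.4 in GSK2-RNAi_oswrky53 leaves, 189, 498 and 318 in GSK2-RNAi leaves, and 1.44 and 0 in wild type leaves (limma adjusted p = 0.227). The receptor gene COI1B was at 0.06 (95% interval from -0.22 to 0.35).

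Defence and salicylic acid genes had 0 of 17 calls and a median of 0.21, with 3 wholly above and 2 wholly below the wild type, near the 15.7% and 11.6% of all loci. The chitinase gene CHT1 had 165, 201 and 457 normalized counts in GSK2-RNAi_oswrky53 leaves, 909.6, 1206 and 2299 in GSK2-RNAi leaves, and 44.1 and 143 in wild type leaves (log2 difference 1.63, limma adjusted p = 0.317). NPR1, the salicylic acid co-receptor, was at -0.21 and the oxidase gene RBOHB at -0.14 (95% interval from -0.93 to 0.66). Of 9 genes of diterpenoid phytoalexins 0 were called, and the synthase gene CPS2 was at 0.08 (from -1.52 to 1.67).

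Phenylpropanoid and lignin genes had 0 of 11 calls and a median of 0.43, where in GSK2-RNAi leaves 6 rose and 1 fell (median 1.38), beside 13.3% and 11.6% of all loci. CAD2, which makes the alcohols of lignin, had 78.1, 59.0 and 43.7 normalized counts in GSK2-RNAi_oswrky53 leaves, 178, 373 and 339 in GSK2-RNAi leaves, and 13.7 and 31.3 in wild type leaves. It stood between the other groups without overlap, at a log2 difference of 1.45 from the wild type (limma adjusted p = 0.243). CHI, of flavonoid synthesis, was at 0.48 (95% interval from -0.06 to 1.02). In the ethylene list ARD1 was the 1 gene called of 6, and the signalling gene EIN2 was at 0.38 (95% interval from -0.02 to 0.79).

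Abscisic acid and water stress genes had 0 of 15 calls and a median of 0.35, with 5 wholly above and 0 wholly below the wild type, beside 15.7% and 11.6% of all loci. PP2C68, a phosphatase that restrains the hormone's signal and is induced by it, had 1018, 1189 and 1196 normalized counts in GSK2-RNAi_oswrky53 leaves, 1614, 1736 and 1509 in GSK2-RNAi leaves, and 665 and 403 in wild type leaves. The 3 groups did not overlap, and GSK2-RNAi_oswrky53 differed by 1.13 ± 0.20 on the log2 scale from wild type leaves (SE, limma adjusted p = 0.0769). NCED3, of hormone synthesis, was at 1.38 (limma adjusted p = 0.208), and ZEP1 at -0.41 (95% interval from -1.14 to 0.32), or 0.10 without wild type replicate 1.

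Heat shock genes had 0 of 14 calls and a median of -0.15, with 1 wholly above and 5 wholly below the wild type, beside 15.7% and 11.6% of all loci. HSFB2C, a heat shock factor, had 406, 379 and 540.4 normalized counts in GSK2-RNAi_oswrky53 leaves, 366, 590.2 and 593 in GSK2-RNAi leaves, and 973 and 899 in wild type leaves (log2 difference -1.10, limma adjusted p = 0.132). Both lines overlapped each other below the wild type. HSP81-2, an HSP90 chaperone gene with the highest count, was at -0.04 (95% interval from -0.49 to 0.40).

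The redox list was drawn up after the called loci were known and had 0 of 8 calls. The catalase gene CATA had 17095, 30549 and 22168 normalized counts in GSK2-RNAi_oswrky53 leaves, 62058, 69466 and 56269 in GSK2-RNAi leaves, and 9724 and 12954 in wild type leaves. The 3 groups did not overlap, with GSK2-RNAi_oswrky53 in the middle, at a log2 difference of 1.01 from the wild type (limma adjusted p = 0.211).

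Phosphate genes had 1 rise, PT1, among 13, and a median of -0.00. PT8, another plasma membrane phosphate transporter, had 2359, 2421 and 2352 normalized counts in GSK2-RNAi_oswrky53 leaves, 3786, 2916 and 5658 in GSK2-RNAi leaves, and 976 and 890.3 in wild type leaves. It had the same order of groups as PT1, without overlap, and a log2 difference of 1.35 ± 0.24 from the wild type that was not called (SE, limma adjusted p = 0.074). SPX6, a sensor gene and the member with the highest count, was at 0.01 (95% interval from -1.02 to 1.04). Of 14 genes of sugar transport and starch MST3 was the 1 called, and the cell wall invertase gene CIN1 was at 0.30 (95% interval from -0.12 to 0.71).

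Growth hormone, clock and flowering genes were not called. This held for 0 of 12 auxin, 0 of 9 gibberellin, 0 of 8 clock and 0 of 18 flowering time genes, with median log2 fold changes of 0.45, -0.01, -0.08 and 0.06. The clock was the most tightly bounded of these, with the 95% interval of 7 of its 8 genes within 1 on the log2 scale (87.5%, beside 56.2% of all loci), and GI, a clock gene that acts on flowering, was at -0.08 (from -0.56 to 0.40). The auxin response factor gene ARF1 was at 0.31 (95% interval from 0.03 to 0.59), the gibberellin repressor gene SLR1 at 0.27 (from -0.02 to 0.56) and the flowering gene MADS14 at 0.04 (from -0.50 to 0.58). MADS50, a promoter of flowering, had 662, 486 and 593 normalized counts in GSK2-RNAi_oswrky53 leaves, 880.4, 1048 and 821 in GSK2-RNAi leaves, and 340.0 and 344 in wild type leaves (log2 difference 0.75, limma adjusted p = 0.133). The florigen gene Hd3a differed as much within as between groups, with 627, 1655 and 1699.7 in GSK2-RNAi_oswrky53 leaves and 298 and 1408 in wild type leaves.

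Marker genes of other tissues had no calls, in 0 of 6 floral, 0 of 6 dividing-cell, 0 of 4 pollen and anther and 0 of 1 root genes. These passed the filter on low values out of 14, 11, 4 and 3 such genes in the table. Summed floral markers ranged from 331 to 1150.4 normalized counts in GSK2-RNAi_oswrky53 libraries and from 441 to 663 in wild type libraries. MADS16 of the floral list was at 0.12 (95% interval from -1.20 to 1.43), and MADS7 and MADS58 were listed at 0 in all 5 libraries. Summed dividing-cell markers ranged from 633 to 726 in GSK2-RNAi_oswrky53 and from 528 to 798 in wild type libraries, with PCNA at 0.44 (95% interval from -0.12 to 0.99). Pollen and anther markers summed to between 274 and 349.6 in GSK2-RNAi_oswrky53 and between 293 and 313 in wild type libraries, with GAMYB at 0.16 (from -0.26 to 0.58). The root silicon transporter gene LSI1 was at -0.09 (from -0.56 to 0.39).

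Metal transport genes, a list drawn up after the called loci were known, had 0 of 11 calls but differed widely between libraries of 1 genotype. NRAMP1, a transporter of iron and other metals, had 19.7, 4074 and 55.6 normalized counts in GSK2-RNAi_oswrky53 leaves, 322, 57.3 and 49.6 in GSK2-RNAi leaves, and 185 and 22034 in wild type leaves. YSL2, which moves iron bound to nicotianamine, had 19.7, 2671 and 52.4 in GSK2-RNAi_oswrky53 leaves, 415, 96.8 and 13.7 in GSK2-RNAi leaves, and 127 and 18604 in wild type leaves. GSK2-RNAi_oswrky53 replicate 2 and wild type replicate 3 were thus high for both genes, and the other 6 libraries were low.

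NAS2, a synthase of nicotianamine, had 5.5, 145 and 16.6 normalized counts in GSK2-RNAi_oswrky53 leaves, 13.0, 8.10 and 15.9 in GSK2-RNAi leaves, and 13.0 and 449 in wild type leaves. Its relative NAS1 had 63.4 in GSK2-RNAi_oswrky53 replicate 2 and 64.6 in wild type replicate 3 and was listed at 0 in the other 6 libraries. NAS1 and NAS2 are close copies, so the division of reads between them is uncertain. The same 2 libraries were high for all 4 genes. The iron uptake gene IRT1 had 26.4, 28.4 and 38.6 in GSK2-RNAi_oswrky53 leaves and 15.9 and 71.2 in wild type leaves. This was a much narrower range, with the highest of these values in wild type replicate 3. IRT2, which did not pass the filter, had 3.29 in GSK2-RNAi_oswrky53 replicate 2 and 16.2 in wild type replicate 3. It was listed at 0 in the other 6 libraries. With the spread seen in NRAMP1, its log2 difference of -3.59 ± 2.47 (SE, limma adjusted p = 0.582) is not interpretable as a difference between genotypes.

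**Figure D5:**
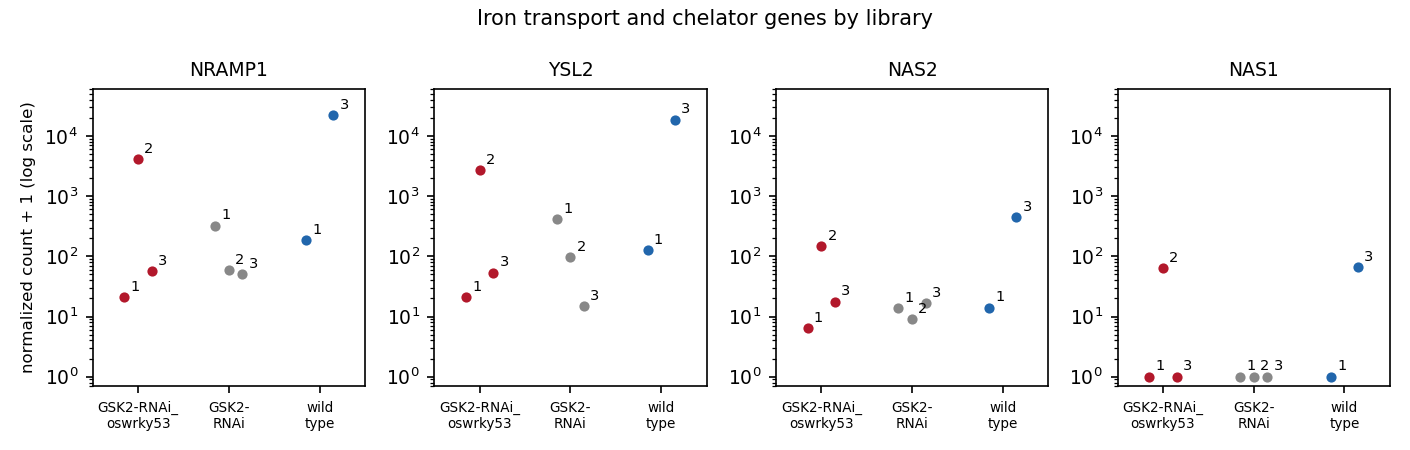
Normalized counts plus 1 (log axis) of NRAMP1, YSL2, NAS2 and NAS1 in each library, with GSK2-RNAi_oswrky53, GSK2-RNAi and wild type from left to right and points numbered by replicate. In every panel GSK2-RNAi_oswrky53 replicate 2 and wild type replicate 3 are the highest libraries, for example 4074 and 22034 for NRAMP1.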

How the data were processed

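Total RNA was turned into libraries with a TruSeq kit from Illumina, per the labels' protocols. The deposited values are 1 table of normalized counts per transcript, a non-negative signal on a scale set by the authors. Build IRGSP-1.0 and the tools DESeq2 1.26.0 and kallisto 0.46.1 are listed in the submitters' processing notes without order or role. The annotation and scaling were not given in the sources used here. No strand is stated, so a gene and an antisense partner cannot be told apart. Low values lay mostly, but not all, near whole multiples of a step fitted per library, as scaled whole reads would. Between 69.7% and 98.9% per library lay within 0.1 of a step. As the rest did not, no count model was run and no counting intervals are given.

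Transcripts were summed per locus. Loci with at least 10 in at least 2 of 8 libraries were tested as log2(value + 1), without further scaling, by limma 3.58.1 in R 4.3.3 (3 group means over all 8 libraries, eBayes with an intensity trend, Benjamini-Hochberg adjusted p under 0.05 over 25325 loci). The fold change of a low gene is understated on this scale. The trend pulls the spread of each locus towards that of loci at similar levels. For abundant genes such as RCA and GI the SE is therefore wider than their own values would give. Folds are ratios of group means. The fit was tested on simulated data. Python 3.11.15 was used for the rest.

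Names were paired with identifiers by hand, and 358 of 425 pairs passed a check of chromosome and order, within 1 Mb, against a RefSeq gene table (assembly ASM3414082v1), which cannot tell neighbouring family members apart. WRKY53, named in the genotype label, was not checked. No coordinates or sequences are given because the builds differ. The members, lists and tests were chosen with earlier results of these data known. Of the 297 named loci tested, the pairs of 115 were written after the called loci of this comparison had been seen, among them ARD1, MST3 and the redox and metal transport lists. Named genes were GSK2, WRKY53, WRKY62 and WRKY76, the largest named and overall changes with a mean of at least 50, called members and the highest member of each list, and up to 4 loci present in 1 group alone. Alternatives varied pseudocount, filter, scaling, libraries, spread model, transcript choice and replicate block.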

Additional observations from a re-analysis of the deposited data

How the results depend on the processing

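Of the 85 changed loci, 29 were called under all 20 alternatives. With the 5 libraries alone 47 changed (42 higher), and 43 of these were among the 85. With the replicate number as a block 32 changed, 29 higher and 3 lower. Deviations of GSK2-RNAi_oswrky53 and wild type gave no sign that the numbers pair the samples, at 0.15 for replicates 1 and -0.15 for replicates 3. The deviations of 2 wild type libraries mirror each other, so these values are not independent checks. The highest correlation, 0.32, was between GSK2-RNAi_oswrky53 replicate 2 and wild type replicate 3, which have different numbers. Leaving out 1 library gave 53 to 64 changed, 45 to 57 higher and 6 to 9 lower, and a wild type library left alone is assumed to vary like the other groups. Equal totals gave 125 changed, 117 of them higher, and moved the median of all loci to 0.09. GSK2 lay between 0.72 and 0.97 and WRKY53 between 0.92 and 1.4 under all alternatives, not called in any. The cause of these shifts was not tested.

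Of the uncalled genes, these changed sign. Under equal totals NAC6 was at 0.042 and HSP81-2 at 0.027. Under quantile normalization NAC6 was at 0.12, GI at 0.067 and HSP81-2 at 0.056. Under median of ratios LOG was at -0.015 and SPX6 at -0.023, and with the highest transcript row HSP81-2 was at 0.066 and SPX6 at -0.070. With the replicate block NAC6 was at 0.036, CPS2 at -0.23 and MADS16 at -0.19. Leaving out 1 library moved WNK1 between -0.013 and 0.21, NAC6 between -0.34 and 0.28, ZEP1 between -0.92 and 0.10, BSL1 between -0.10 and 0.19, DWF4 between -1.43 and 0.32, NYC1 between -0.40 and 1.25, LOG between -0.23 and 0.27, RBOHB between -0.60 and 0.33, CPS2 between -0.40 and 0.55, MADS14 between -0.13 and 0.22, HSP81-2 between -0.27 and 0.18, COI1B between -0.0033 and 0.13, MADS16 between -0.39 and 0.74, Fd-GOGAT between -0.53 and 0.054 and SPX6 between -0.62 and 0.63. Values are log2 fold changes. PT1 was lost under 10 alternatives, MST3 under 6 and the fall of Os06g0197575 under 3. The depth in reads is unknown, so no floor is given for loci listed at 0.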
